A study of Rattus norvegicus with 12 samples.

Results

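The genes described here are those of complement, of macrophages and of the Fc receptors, measured by RNA sequencing in rat hearts. They were chosen by symbol, with earlier results of these data known. Of 49 symbols listed, 46 had a row of exactly that name in the deposited gene table with a count above 0, out of 18448 genes with any count. C4a, Cfb and Itgam had no such row and were not analysed here. All hearts came from male Sprague Dawley rats, given in the labels as 5 weeks old and 130 to 150 g. The schedules below run for 8 weeks, and the labels do not say at which point the age and weight were taken. Chrysin rats were injected under the skin with 20 mg/kg SU-5416, which blocks the VEGF receptor, and had 3 weeks of 10% oxygen and 2 of normoxia, in an order that the labels leave ambiguous. They then took chrysin, a plant flavonoid, at 100 mg/kg per day for 3 weeks in normoxia. SU_HX rats had the same injection and hypoxia and then vehicle for 3 weeks, so the SU-5416 and hypoxia of the model are shared by both groups. CTRL rats stayed in normoxia for 8 weeks, and no injection or vehicle is given for them. Each group holds 4 libraries. The labels do not say which chamber of the heart was taken, or whether a library is 1 animal. Each library is called a rat below, and p-values set differences between groups against the spread between these libraries.

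Complement is a cascade of plasma and tissue proteins: the C1 complex binds antibody or dying cells, C2, C3 and C4 are cleaved in turn, the fragments call in phagocytes through their receptors, and a terminal complex can open membranes, while inhibitors protect host cells. Macrophages are the main resident immune cells of the heart; they clear debris, make C1q, and carry Fc receptors, which bind the tail of antibodies and signal through small adaptor chains. In pressure-loaded hearts, macrophage number and state are known to change, and the sugen and hypoxia model loads the right ventricle through pulmonary hypertension. In whole tissue, more cells of a type and more RNA per cell cannot be told apart, nor can fewer cells and less RNA per cell.

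Total counts ran between 3997306 and 6009798 per library, of which the 46 genes took 4792 to 18299 counts in Chrysin rats, 10333 to 23930 in SU_HX rats and 6209 to 8125 in CTRL rats. Levels are given below as CPM (counts scaled to a common library size, with TMM factors), in the order of rats 1 to 4 of each group. A pair of libraries stood apart in these genes. SU_HX rat 3 was the highest of the 4 SU_HX rats in 37 of the 42 genes that could be tested, against 20.0% of all genes, and Chrysin rat 3 was the lowest of the 4 Chrysin rats in 40 of 42, against 32.1% of all genes. The summed level of the 46 genes was 2252, 2488, 1313 and 2902 CPM in Chrysin rats, 2389, 2324, 5113 and 2819.7 CPM in SU_HX rats, and 1377, 1439, 1384 and 1512 CPM in CTRL rats. In this sum Chrysin rat 3 lay under the whole CTRL range, and SU_HX rat 3 above every other rat. The sum is weighted by genes of high level, among them C7 and Ncf1. C7 measured 233 CPM in Chrysin rat 3, against 331 to 431 CPM in CTRL rats, and Ncf1 121 CPM, against 164 to 170 CPM. Taken gene by gene, Chrysin rat 3 lay above all CTRL rats in 15 of the 42, within their range in 18 and under them in 9.

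The question put first was what the sugen and hypoxia model did to these genes. In SU_HX hearts, 35 of the 42 genes that passed a filter on low counts rose relative to CTRL hearts, 1 (Ncf1) fell and 6 did not pass the test, at an adjusted p under 0.05 in edgeR's quasi-likelihood test over all 12304 genes. The share of these genes called higher was 83.3%. Of all genes tested, 16.0% were called higher and 14.7% lower. The genes were listed with earlier results of these data known, so these shares describe the list and do not test it. Some of the 42 passed the filter through the model rats. Olr1, Trem2 and Cx3cr1, for example, had 16, 16 and 22 counts in all CTRL rats. Their median log2 fold change was 1.62, against 0.07 for all genes tested. The SU_HX rats lay above every CTRL rat in 34 of the 42, against 15.8% of all genes. Without SU_HX rat 3, 28 were called higher in place of 35, and 29 of the 36 calls, Ncf1 among them, held whichever of the 12 libraries was left out. The remaining 4 genes, C6, Cfi, Timd4 and Ccr2, were under the filter; their highest values were 3.01 CPM for C6, 0.354 CPM for Cfi and 2.78 CPM for Timd4, all in SU_HX rats, and 1.11 CPM for Ccr2 in a CTRL rat.

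**Figure D1:**
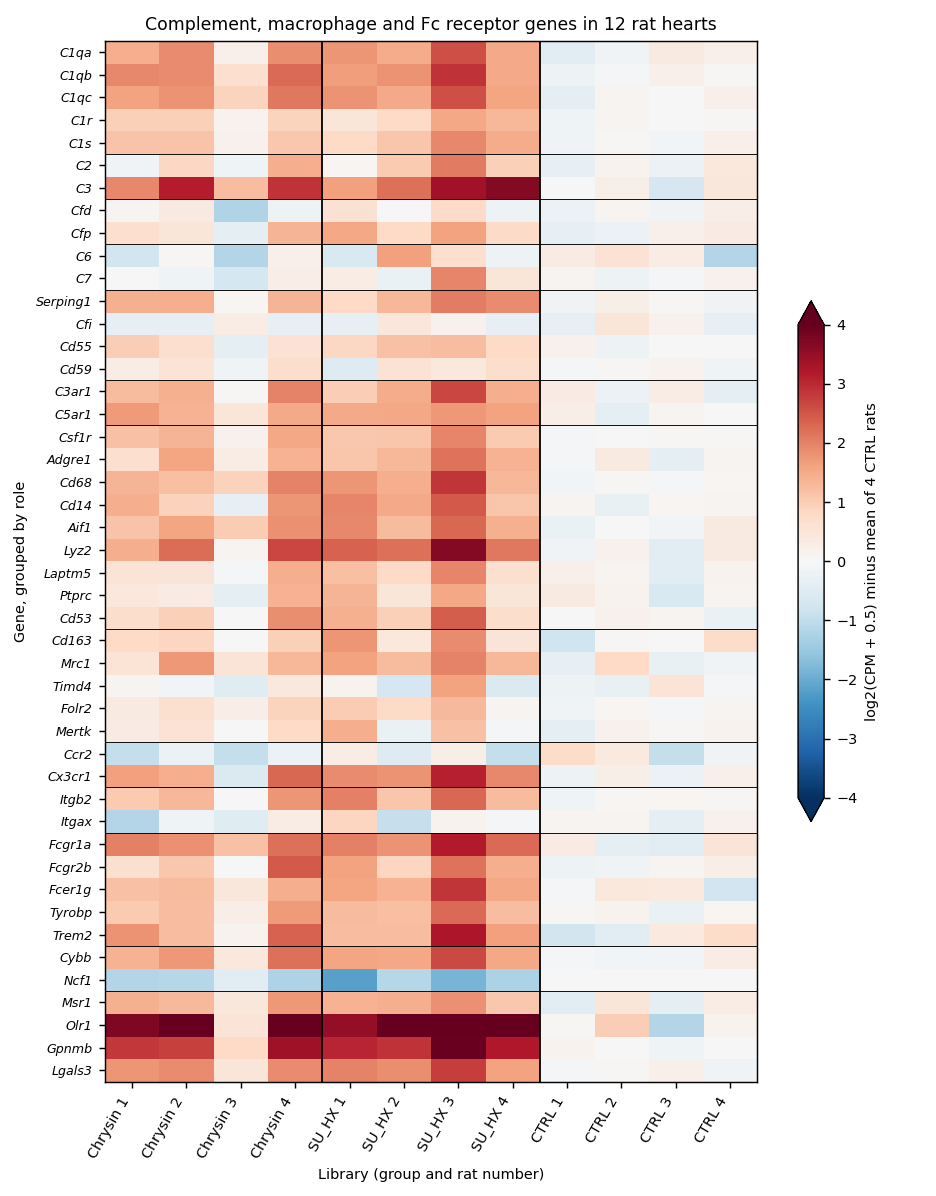
Level of each of the 46 genes (rows, grouped by role) in each of the 12 libraries (columns), as log2(CPM + 0.5) minus the mean of the 4 CTRL rats; red is higher, blue is lower, and colours saturate at 4. Most rows are red in the SU_HX columns and palest in Chrysin rat 3 among the model rats, SU_HX rat 3 is darkest in most rows, and Ncf1 is blue in both model groups.

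All 5 genes of the C1 complex rose in SU_HX hearts. C1q, the part that binds antibody, is built from the chains of C1qa, C1qb and C1qc, and C1r and C1s are the proteases bound to it. C1qc measured 58.8, 66.8, 34.8 and 82.0 CPM in Chrysin rats, 66.4, 55.0, 115 and 57.4 CPM in SU_HX rats and 14.6, 20.3, 19.1 and 21.8 CPM in CTRL rats. All SU_HX rats, and all Chrysin rats too, lay above the highest CTRL rat, and Chrysin rat 3 was the lowest of the 8 model rats. C1qc rose 3.86-fold (log2 fold change 1.95, SE 0.28, adjusted p = 0.00108) in SU_HX hearts, C1qb 4.33-fold (adjusted p = 0.00173) and C1qa 3.75-fold (adjusted p = 0.00270). The proteases rose less: C1r measured 267, 269, 153 and 259 CPM in Chrysin rats, 194, 241, 408 and 348 CPM in SU_HX rats and 124, 150.1, 138 and 145 CPM in CTRL rats, a rise of 2.14-fold (log2 fold change 1.10, SE 0.24, adjusted p = 0.00594), and C1s rose 2.6-fold (adjusted p = 0.00279). The groups SU_HX and CTRL did not overlap in any of the 5. Per kb of exon, C1r had the highest level of the 5 in SU_HX hearts (108 CPM per kb) and in CTRL hearts (50.3 CPM per kb). The 3 chain genes had close levels, with C1qc at 67.3, C1qa at 65.6 and C1qb at 51.1 CPM per kb in SU_HX hearts, against 17.4, 17.5 and 11.8 CPM per kb in CTRL hearts. They are neighbours: the deposited table places C1qb at chr5:155246447-155252003, C1qc at chr5:155255005-155258392 and C1qa at chr5:155261250-155264143, within 17697 bases of chromosome 5. Which genome build the table uses is not given in the labels or its header. For C1s, 84.7% of exon reads were unique to the gene.

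A pair of these chain genes is shown with the 250 bases before their starts, from RefSeq (GRCr8), because the chains rose together. The letters GAGGAA, 1 form of the site bound by the macrophage factor PU.1 (gene Spi1), can be looked for there. C1qa is read from chr5:154419934-154420183, reverse strand, and C1qb from chr5:154407828-154408077, reverse strand. Capitals mark GAGGAA or, for the other strand, TTCCTC.
C1qa: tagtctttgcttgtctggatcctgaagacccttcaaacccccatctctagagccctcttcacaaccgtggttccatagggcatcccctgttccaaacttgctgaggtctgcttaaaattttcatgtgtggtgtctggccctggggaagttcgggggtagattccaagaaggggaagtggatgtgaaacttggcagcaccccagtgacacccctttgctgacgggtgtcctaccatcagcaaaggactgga
C1qb: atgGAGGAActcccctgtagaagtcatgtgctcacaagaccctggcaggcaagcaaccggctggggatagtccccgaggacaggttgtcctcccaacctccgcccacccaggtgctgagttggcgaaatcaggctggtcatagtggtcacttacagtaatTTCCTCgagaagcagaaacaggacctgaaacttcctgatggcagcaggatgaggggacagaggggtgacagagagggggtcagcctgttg
The C1qb window holds 1 match on each strand, and the C1qa window holds none of these letters. Both genes rose by close amounts. Forms of the site without GAGGAA were not searched, so a window without a match may hold another form. Of the 46 genes, 31 had a promoter in the RefSeq table, and 16 of these windows (51.6%) held GAGGAA on either strand, against 23.3% of 33469 rat promoter windows of the same length. The longer form GAGGAAGT was in 1 of the 31, that of Cd53, against 2.04% of all windows. These are matches of letters, and no binding was measured.

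C3, the central component cut by both arms of the cascade, was among the genes with the largest changes. It measured 9.06, 21.9, 5.48 and 18.2 CPM in Chrysin rats, 7.40, 11.1, 25.6 and 31.4 CPM in SU_HX rats and 2.00, 2.49, 1.07 and 2.98 CPM in CTRL rats. Every SU_HX and every Chrysin rat exceeded the highest CTRL rat, and the 4 CTRL rats had 43 counts in all. C3 rose 8.64-fold (log2 fold change 3.11, SE 0.56, adjusted p = 0.00228) in SU_HX hearts. C2, the protease cut by C1s, measured 10.4, 21.1, 10.1 and 32.5 CPM in Chrysin rats, 12.3, 24.2, 50 and 22.6 CPM in SU_HX rats and 9.09, 12.6, 9.85 and 15.6 CPM in CTRL rats. Its groups overlapped, SU_HX rat 1 lying inside the CTRL range, and its difference did not pass (log2 fold change 1.20, SE 0.43, adjusted p = 0.0501); without Chrysin rat 1, 3 or 4 or SU_HX rat 1 its adjusted p was 0.0193 to 0.0485, and DESeq2 gave an adjusted p of 0.0283. Only 55.3% of the C2 exon reads were unique to the gene, which overlaps a copy of Cfb in the table.

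In the alternative pathway, Cfp, properdin, which steadies the C3 convertase, rose, and Cfd, the protease factor D, did not pass. Cfp measured 9.71, 8.41, 4.38 and 15.9 CPM in Chrysin rats, 18.3, 10.6, 19.2 and 10.4 CPM in SU_HX rats and 4.66, 4.98, 6.85 and 7.63 CPM in CTRL rats. The lowest SU_HX rat was above the highest CTRL rat, whereas Chrysin rat 3 lay under all CTRL rats. Cfp rose 2.41-fold (log2 fold change 1.27, SE 0.34, adjusted p = 0.0150), a call that was lost without SU_HX rat 3 (adjusted p = 0.0503). Cfd measured 2.14, 2.64, 0.548 and 1.59 CPM in Chrysin rats, 3.24, 1.95, 3.63 and 1.61 CPM in SU_HX rats and 1.55, 2.11, 1.71 and 2.42 CPM in CTRL rats. The groups overlapped at low levels (log2 fold change 0.40, SE 0.41, adjusted p = 0.471), and 37.7% of its exon reads were unique to the gene, which overlaps Arhgap45.

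C7, a subunit of the membrane attack complex that connective tissue cells are known to make, had the highest level per kb of the 42 genes, 141 CPM per kb in Chrysin hearts, 276 in SU_HX hearts and 152 in CTRL hearts. It measured 387, 343, 233 and 466 CPM in Chrysin rats, 468, 316, 1478 and 537 CPM in SU_HX rats and 416, 331, 364 and 431 CPM in CTRL rats. SU_HX rat 3 stood far above the other 11 rats; SU_HX rats 1 and 4 were just above the highest CTRL rat, and SU_HX rat 2 was under all CTRL rats. The difference did not pass (log2 fold change 0.86, SE 0.40, adjusted p = 0.114); without SU_HX rat 2 the adjusted p was 0.0298. The fibroblast markers, whose values stand near the end, were also highest in SU_HX rat 3, and their part in the C7 value was not tested.

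Of the inhibitors that protect host cells, Serping1 and Cd55 rose and Cd59 did not pass. Serping1, the C1 inhibitor, measured 201, 204, 79.2 and 192 CPM in Chrysin rats, 129.7, 187, 310.4 and 275 CPM in SU_HX rats and 67.2, 87.7, 77.7 and 67.0 CPM in CTRL rats. The SU_HX and CTRL groups did not overlap, and Chrysin rat 3 lay inside the CTRL range while the other 3 Chrysin rats were close to each other. Serping1 rose 3.01-fold (log2 fold change 1.59, SE 0.31, adjusted p = 0.00339) in SU_HX hearts. Cd55, which speeds the decay of the convertases, measured 17.3, 13.7, 6.30 and 12.8 CPM in Chrysin rats, 15.5, 19.6, 20.7 and 15.0 CPM in SU_HX rats and 9.53, 7.28, 8.56 and 8.56 CPM in CTRL rats, and rose 2.09-fold (adjusted p = 0.00689) with no overlap between SU_HX and CTRL. Cd59, which blocks the membrane attack complex and is made by most cells, measured 175, 209, 129 and 234 CPM in Chrysin rats, 101, 212, 194 and 234 CPM in SU_HX rats and 138, 148, 158 and 130.3 CPM in CTRL rats. SU_HX rat 1 was the lowest of all 12 in Cd59, and the other 3 SU_HX rats lay above every CTRL rat. Its difference did not pass (log2 fold change 0.37, SE 0.24, adjusted p = 0.266), and without SU_HX rat 1 the adjusted p was 0.0250.

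Both receptors for the small fragments of the cascade rose. C5ar1, the C5a receptor of myeloid cells, measured 15.3, 12.2, 6.30 and 13.5 CPM in Chrysin rats, 13.4, 13.8, 15.8 and 14.5 CPM in SU_HX rats and 5.32, 3.26, 4.71 and 4.47 CPM in CTRL rats. Every model rat, Chrysin rat 3 included, was above the highest CTRL rat, and the SU_HX rats were within a narrow range of each other. C5ar1 rose 3.24-fold (log2 fold change 1.70, SE 0.25, adjusted p = 0.00112) in SU_HX hearts. C3ar1, the C3a receptor, rose 3.88-fold (adjusted p = 0.00802), with 5.09 to 17.5 CPM in SU_HX rats, against 1.67 to 3.10 CPM in CTRL rats.

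**Figure D2:**
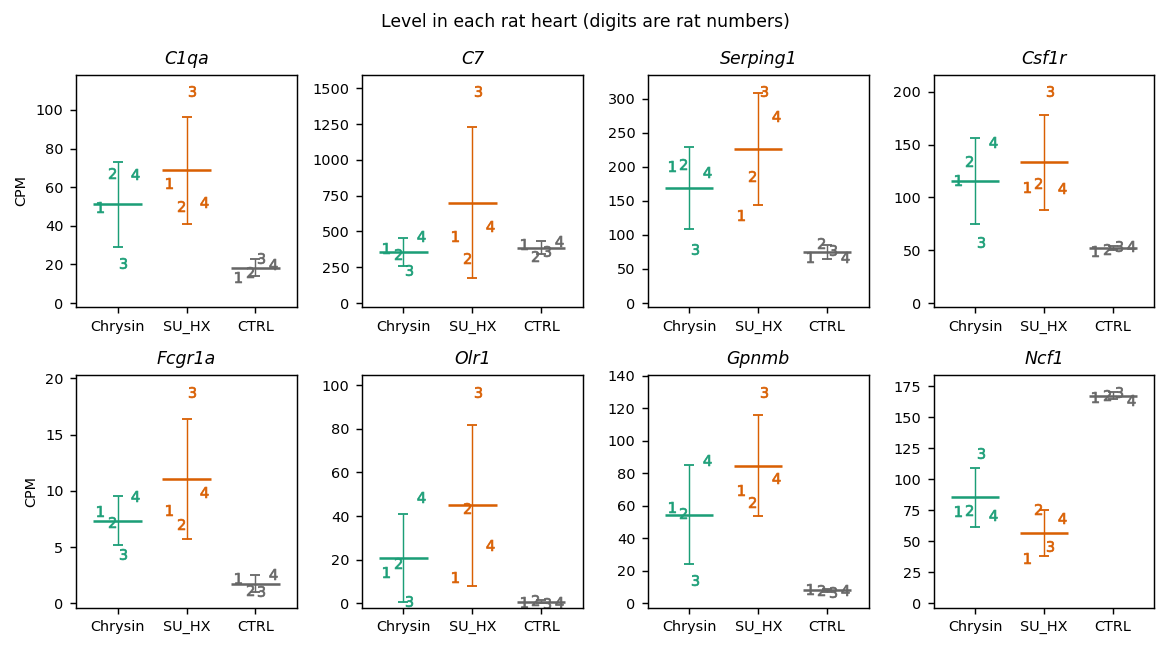
Level in CPM of 8 genes in each rat; digits are rat numbers, horizontal lines are group means and vertical bars are SD (n = 4), and each panel has its own scale. Chrysin rat 3 is the lowest Chrysin rat in all but Ncf1, SU_HX rat 3 is the highest SU_HX rat in all but Ncf1, and Ncf1 alone is highest in CTRL rats.

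All 9 genes of the macrophage lineage list rose in SU_HX hearts, by log2 fold changes between 1.02 and 2.74. Aif1 (Iba1), a calcium-binding protein of macrophages, measured 10.4, 14.0, 9.31 and 16.8 CPM in Chrysin rats, 17.8, 11.3, 23.5 and 12.7 CPM in SU_HX rats and 3.55, 4.40, 4.07 and 5.77 CPM in CTRL rats. The model rats all exceeded the highest CTRL rat. It rose 3.63-fold (log2 fold change 1.86, SE 0.28, adjusted p = 0.00118). Lyz2, lysozyme, measured 73.1, 127, 28.5 and 170.2 CPM in Chrysin rats, 137, 124, 347 and 116 CPM in SU_HX rats and 24.2, 29.9, 19.7 and 34.4 CPM in CTRL rats. SU_HX rat 3 had more than any other rat, and Chrysin rat 3 fell inside the CTRL range. Lyz2 rose 6.68-fold (log2 fold change 2.74, SE 0.50, adjusted p = 0.00236), the largest change of the list, and 64.7% of its exon reads were unique to the gene. Cd14, a co-receptor for bacterial lipopolysaccharide, measured 15.3, 10.6, 4.11 and 19.3 CPM in Chrysin rats, 21.7, 16.1, 31.4 and 12 CPM in SU_HX rats and 5.76, 4.21, 5.57 and 5.77 CPM in CTRL rats; the SU_HX and CTRL groups did not overlap, and it rose 3.81-fold (adjusted p = 0.00416). Csf1r, the receptor for the macrophage growth factor Csf1, rose 2.56-fold (adjusted p = 0.00366), with 109 to 200.2 CPM in SU_HX rats, against 49.2 to 53.6 CPM in CTRL rats. Adgre1 (F4/80) rose 3.00-fold (adjusted p = 0.00345) and Cd68, a lysosomal membrane protein of phagocytes, 4.41-fold (adjusted p = 0.00205). Cd53, a tetraspanin of leukocytes, rose 3.02-fold (adjusted p = 0.0133). Laptm5, a lysosomal protein of leukocytes, rose 2.37-fold (adjusted p = 0.0157), a call lost without SU_HX rat 3 or CTRL rat 3 (adjusted p = 0.0541 to 0.0579). Ptprc (CD45), the phosphatase carried by all leukocytes, changed least of the list, 2.02-fold (adjusted p = 0.0469), and its call was lost when any of 8 single libraries was left out, that is Chrysin rats 1 and 2, SU_HX rats 1 and 3 and each CTRL rat (adjusted p = 0.0599 to 0.140). It was also lost with relative-log size factors (adjusted p = 0.0501), with no filter on low counts (0.0644), with limma-voom (0.0541) and without SU_HX rat 1 and Chrysin rat 3 together (0.0631).

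Of the 4 genes of resident tissue macrophages that were tested, 3 rose. Mrc1 (CD206), the mannose receptor, measured 58.8, 134, 57.5 and 101 CPM in Chrysin rats, 122, 95.5, 159 and 100.1 CPM in SU_HX rats and 31.7, 68.9, 32.1 and 35.9 CPM in CTRL rats. CTRL rat 2 stood well above the other CTRL rats, and yet every SU_HX rat was higher. Mrc1 rose 2.83-fold (log2 fold change 1.50, SE 0.32, adjusted p = 0.00494). Cd163, the scavenger receptor for haemoglobin, rose 2.32-fold (adjusted p = 0.0281) although its groups overlapped (44.2 to 123 CPM in SU_HX rats, 18.6 to 55.1 CPM in CTRL rats). The Cd163 call was lost without SU_HX rat 1 or 3 or without CTRL rat 1, 2 or 3 (adjusted p = 0.0681 to 0.0969), and without SU_HX rat 1 and Chrysin rat 3 together (0.0569). Folr2, a folate receptor of resident macrophages, rose 1.91-fold (adjusted p = 0.0177), and not without SU_HX rat 3 or CTRL rat 1 (adjusted p = 0.0506 to 0.0599). Mertk, a receptor for dying cells, measured 13.2, 15.5, 10.4 and 18.4 CPM in Chrysin rats, 29.1, 8.49, 23.7 and 9.92 CPM in SU_HX rats and 7.98, 11.7, 10.7 and 11.4 CPM in CTRL rats. SU_HX rats 1 and 3 lay above the CTRL range and SU_HX rats 2 and 4 were inside it. Its difference did not pass (log2 fold change 0.76, SE 0.35, adjusted p = 0.115); without SU_HX rat 2 the adjusted p was 0.0230.

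Cx3cr1, the fractalkine receptor of monocytes and of some resident macrophages, measured 4.45, 3.79, 0.548 and 7.30 CPM in Chrysin rats, 5.32, 4.95, 13.2 and 5.53 CPM in SU_HX rats and 0.887, 1.34, 0.856 and 1.30 CPM in CTRL rats. SU_HX rats were all above CTRL rats, and Chrysin rat 3 was the lowest rat of all 12. Its value rests on 2 counts, where 3 counts correspond to 0.822 CPM in that library, and the CTRL rats had 22 counts of Cx3cr1 in all. Cx3cr1 rose 6.44-fold (log2 fold change 2.69, SE 0.57, adjusted p = 0.00476) in SU_HX hearts. Ccr2, the receptor that brings monocytes out of the marrow, stayed at or under 1.11 CPM in every rat, where 3 counts correspond to 0.476 to 0.822 CPM, so no difference was detectable at this depth.

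Among the leukocyte integrins, Itgb2 rose and Itgax did not pass. Itgb2, the CD18 chain shared by several leukocyte integrins, measured 14.7, 17.8, 6.85 and 24.3 CPM in Chrysin rats, 29.1, 15.2, 35.9 and 17.3 CPM in SU_HX rats and 5.99, 7.09, 7.28 and 7.07 CPM in CTRL rats. All SU_HX rats were above all CTRL rats, and Itgb2 rose 3.54-fold (log2 fold change 1.82, SE 0.35, adjusted p = 0.00310). Itgax (CD11c), a partner chain common on dendritic cells and some macrophages, measured 3.79, 8.08, 6.30 and 11.3 CPM in Chrysin rats, 16.9, 4.60, 10.0 and 8.53 CPM in SU_HX rats and 9.75, 9.96, 6.85 and 10.2 CPM in CTRL rats. The groups overlapped, with SU_HX rat 1 highest and Chrysin rat 1 lowest (log2 fold change 0.11, SE 0.37, adjusted p = 0.844). The log2 fold change of Itgax turned to -0.27 without SU_HX rat 1 and to -0.029 without CTRL rat 3, and 58.6% of its exon reads were unique to the gene, which overlaps Itgad.

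All 5 genes of the Fc receptors and their adaptor chains rose in SU_HX hearts. Fcgr1a (CD64), the high-affinity receptor for IgG, measured 8.23, 7.26, 4.38 and 9.52 CPM in Chrysin rats, 8.32, 7.08, 18.8 and 9.92 CPM in SU_HX rats and 2.22, 1.15, 1.07 and 2.61 CPM in CTRL rats. Every model rat exceeded the highest CTRL rat. Fcgr1a rose 6.17-fold (log2 fold change 2.62, SE 0.40, adjusted p = 0.00119). Fcer1g, the common gamma chain through which activating Fc receptors signal, measured 12, 13, 7.12 and 14.9 CPM in Chrysin rats, 16.2, 14.2, 39.7 and 15.9 CPM in SU_HX rats and 4.88, 6.89, 6.85 and 2.79 CPM in CTRL rats. SU_HX rat 3 had more than any other rat, and Chrysin rat 3 lay just above the highest CTRL rat. It rose 4.01-fold (log2 fold change 2.01, SE 0.38, adjusted p = 0.00293). Tyrobp (DAP12), the adaptor of Trem2, rose 3.14-fold (adjusted p = 0.00354). Trem2, a lipid receptor of macrophages, rose 5.61-fold (adjusted p = 0.0189) at low levels, 2.30 to 10.7 CPM in SU_HX rats and 0.222 to 1.49 CPM in CTRL rats. The Trem2 call was lost without SU_HX rat 3, CTRL rat 1 or CTRL rat 2 (adjusted p = 0.0550 to 0.0840), and without SU_HX rat 3 its log2 fold change was 1.67 in place of 2.49. Fcgr2b, the inhibitory IgG receptor, rose 3.40-fold (adjusted p = 0.0208) alongside the activating ones, and this call too was lost without SU_HX rat 3, CTRL rat 1 or CTRL rat 2 (adjusted p = 0.0554 to 0.0688). Fcgr2b overlaps Fcgr3a in the table, and 92.9% of its exon reads were unique to it.

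The phagocyte NADPH oxidase genes moved in opposite directions. This enzyme makes superoxide from a membrane pair (Cybb and Cyba) and cytosolic subunits, among them Ncf1, Ncf4 and the small GTPase Rac2. Ncf1 (p47phox), the organiser that carries the cytosolic subunits to the membrane, measured 74.4, 75.2, 121 and 71.4 CPM in Chrysin rats, 36.3, 76.1, 45.9 and 68.5 CPM in SU_HX rats and 166, 168, 170.4 and 164 CPM in CTRL rats. The 4 CTRL rats were within a few CPM of each other, and every model rat was lower, Chrysin rat 3 being the nearest to CTRL. Ncf1 fell by 1.56 on the log2 scale in SU_HX hearts (SE 0.23, adjusted p = 0.00114). Cybb (gp91phox), the catalytic subunit, measured 62.7, 79.7, 32.3 and 111 CPM in Chrysin rats, 72.8, 70.2, 149.6 and 70.8 CPM in SU_HX rats and 22.4, 22.0, 22.3 and 29.2 CPM in CTRL rats. All model rats were above the highest CTRL rat, and Cybb rose 3.79-fold (log2 fold change 1.92, SE 0.34, adjusted p = 0.00220). Ncf4, Cyba and Rac2 also rose in SU_HX hearts, Ncf4 5.14-fold (adjusted p = 0.00114), Cyba 2.62-fold (adjusted p = 0.00447) and Rac2 1.77-fold (adjusted p = 0.0399). In CTRL hearts Ncf1 stood at 58.0 CPM per kb and Cybb at 5.61, whereas in SU_HX hearts Ncf1 stood at 19.7 and Cybb at 21.2 CPM per kb. Ncf1 lies at chr12:25497104-25506300 in the table, with 69.4% of its exon reads unique to it, and with unique reads alone the call was the same. Reads in its introns also fell in SU_HX hearts, by a log2 fold change of -1.43 (SE 0.20, adjusted p = 0.00147).

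**Figure D3:**
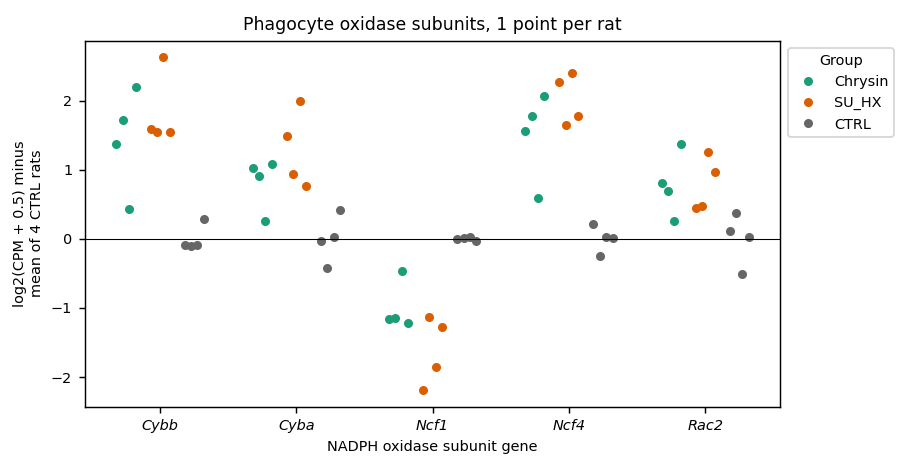
Level of 5 oxidase subunit genes in each rat, as log2(CPM + 0.5) minus the mean of the 4 CTRL rats, 1 point per rat. Ncf1 is under 0 in all 8 model rats, and the 4 other genes drawn are above 0 in all 8.

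The same 250-base windows are shown for this opposed pair, Cybb from chrX:16065066-16065315, reverse strand, and Ncf1 from chr12:28121635-28121884, forward strand (RefSeq, GRCr8), with GAGGAA or TTCCTC in capitals.
Cybb: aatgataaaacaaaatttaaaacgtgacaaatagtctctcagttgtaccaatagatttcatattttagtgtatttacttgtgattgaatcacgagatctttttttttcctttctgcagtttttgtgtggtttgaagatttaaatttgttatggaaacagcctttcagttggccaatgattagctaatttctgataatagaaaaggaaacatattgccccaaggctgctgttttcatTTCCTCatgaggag
Ncf1: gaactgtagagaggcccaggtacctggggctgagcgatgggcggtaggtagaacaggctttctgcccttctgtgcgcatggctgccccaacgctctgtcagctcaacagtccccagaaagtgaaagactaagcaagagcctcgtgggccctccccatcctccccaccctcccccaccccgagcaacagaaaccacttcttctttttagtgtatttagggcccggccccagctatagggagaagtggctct
The Cybb window has 1 match, starting 14 bases before the end of the window, and the Ncf1 window has none of these letters. The absence of these letters from 250 bases says nothing of the factor itself.

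The scavenger and lipid-handling genes held the 2 largest fitted changes of the 42, those of Olr1 and Gpnmb, and all 4 rose. Gpnmb, a membrane glycoprotein of lipid-laden and repair macrophages, measured 59.3, 55.7, 14.2 and 88.2 CPM in Chrysin rats, 69.8, 62.1, 130.1 and 76.8 CPM in SU_HX rats and 8.87, 8.04, 7.06 and 8.00 CPM in CTRL rats. CTRL rats were within a narrow range, all model rats were above it, and Chrysin rat 3 was far under the other model rats. It rose 10.6-fold (log2 fold change 3.40, SE 0.44, adjusted p = 0.000895), the smallest p of the 42. Lgals3 (galectin-3), a lectin of activated macrophages, measured 40.7, 44.2, 16.4 and 43.9 CPM in Chrysin rats, 47.4, 42.8, 82.0 and 36.4 CPM in SU_HX rats and 10.9, 11.9, 13.3 and 10.4 CPM in CTRL rats, with no overlap between either model group and CTRL, and rose 4.49-fold (log2 fold change 2.17, SE 0.32, adjusted p = 0.00107). Olr1 (LOX-1), a receptor for oxidised lipoprotein known from endothelium and macrophages, measured 14.5, 18.5, 1.10 and 48.7 CPM in Chrysin rats, 12.3, 43.5, 97.0 and 26.8 CPM in SU_HX rats and 0.665, 1.72, 0 and 0.744 CPM in CTRL rats. Olr1 was near the limit of detection in CTRL rats and in Chrysin rat 3, and CTRL rat 3 had no count. Its fitted rise, a log2 fold change of 5.76 (SE 1.04, adjusted p = 0.00230), was the largest of the 42 and depends on the few counts of CTRL rats: it was 5.07 without SU_HX rat 3 and 6.48 without CTRL rat 2. With limma-voom it did not pass (adjusted p = 0.0586). Msr1, the class A scavenger receptor, rose 2.84-fold (adjusted p = 0.00430).

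Levels were also set against Csf1r in the same library, as a description of which genes moved more or less than this general macrophage gene. Of the 41 other genes tested, 12 had a ratio to Csf1r that was higher in every SU_HX rat than in every CTRL rat, 3 (Cfd, Cd59 and Ncf1) a ratio that was lower, and 26 had ratios that overlapped. The 12 were C1qa, C1qb, C1qc, C3, Cd68, Lyz2, Cx3cr1, Fcgr1a, Cybb, Olr1, Gpnmb and Lgals3. No share over all genes was taken for these ratios, so how common such counts are among other genes is not known. For Gpnmb the ratio of its CPM to that of Csf1r was 0.548 to 0.707 in SU_HX rats, against 0.132 to 0.180 in CTRL rats. For Lyz2 the ratio was 1.07 to 1.73 in SU_HX rats, against 0.368 to 0.642 in CTRL rats. Among the 26 that overlapped were the resident macrophage genes. Mrc1 had a ratio of 0.796 to 1.11 in SU_HX rats, against 0.600 to 1.35 in CTRL rats. Cd163 had 0.390 to 1.03 in SU_HX rats, against 0.378 to 1.03 in CTRL rats. The 26 also held Adgre1, Aif1, Cd14, Itgb2 and Tyrobp, so overlap was not particular to the resident genes.

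Reads in introns gave a second measure of the same libraries, chosen after the first results were seen. Of the 32 genes with enough reads in both, 15 rose and 1, Ncf1, fell in SU_HX hearts, where 8.50% of 12242 genes were called higher and 11.3% lower. The median log2 fold change of the 32 was 0.94 with intron reads, against 1.59 with the deposited counts. Gpnmb had 3.13 (SE 0.55, adjusted p = 0.00289) with intron reads, Olr1 4.28 (SE 0.81, adjusted p = 0.00385), Serping1 2.07 (SE 0.50, adjusted p = 0.0123) and Fcgr1a 1.90 (SE 0.36, adjusted p = 0.00383). The C1q chain genes changed less there, C1qa by 1.12 (SE 0.32, adjusted p = 0.0247) and C1qb by 0.89 (SE 0.30, adjusted p = 0.0530). C5ar1, with 0.24 (SE 0.45, adjusted p = 0.750), and Lyz2, with 0.97 (SE 0.61, adjusted p = 0.286), did not pass with intron reads. Mertk (0.65, SE 0.19, adjusted p = 0.0266) and Cd59 (0.40, SE 0.12, adjusted p = 0.0325) passed with intron reads only, and so did Timd4 (1.37, SE 0.36, adjusted p = 0.0174), a gene of long-lived resident macrophages whose deposited counts were under the filter. The share of intron reads was 70.6% in SU_HX rat 1 and 48.5% to 58.7% in the other 11 libraries; its part in these values was not tested. With intron reads, 12 genes rose in Chrysin against CTRL hearts, where 4.97% of all genes did, Folr2 and Mertk among them, and Ncf1 fell, as 6.81% did. In Chrysin against SU_HX hearts none of them was called, and 0.00817% of all genes were higher.

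**Figure D4:**
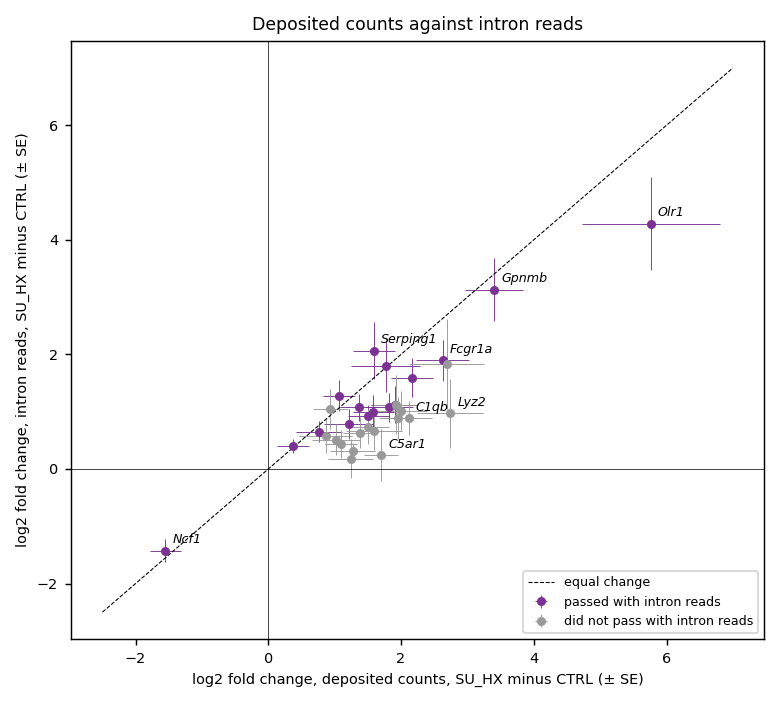
Log2 fold change of SU_HX minus CTRL with intron reads (vertical) against that with the deposited counts (horizontal) for the 32 genes tested with both, with SE bars; purple points passed with intron reads, and the dashed line marks equal change. Gpnmb, Fcgr2b and Ncf1 lie near the line, Serping1 lies above it, and 27 of the 32 changed less with intron reads.

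The comparison of Chrysin with SU_HX hearts asks what chrysin did in model rats. No gene of the series was called by edgeR in either direction (0% of 12304), so none of the 42 was; 1002 genes (8.14%) had an unadjusted p under 0.05, and 3 of the 42 did. DESeq2 called 2 genes of the series and none of these. In value, 40 of the 42 were lower in Chrysin hearts, with a median log2 fold change of -0.45, where 57.0% of all genes were lower and the median of all genes was -0.05. The count and the median moved with the libraries that stand apart: without SU_HX rat 3, 31 of the 42 were lower with a median of -0.16, and without Chrysin rat 3, 37 were lower with a median of -0.26. The 5 genes with the smallest p, none of which passed, were as follows. Ncf1 was higher in Chrysin hearts (log2 fold change 0.59, SE 0.23, adjusted p = 0.557), at 71.4 to 121 CPM in Chrysin rats and 36.3 to 76.1 CPM in SU_HX rats, and its groups overlapped. C7 was lower (log2 fold change -0.97, SE 0.40, adjusted p = 0.557), as were Fcer1g (log2 fold change -0.85, SE 0.35, adjusted p = 0.557), Cd55 (log2 fold change -0.48, SE 0.24, adjusted p = 0.557) and Cd14 (log2 fold change -0.69, SE 0.36, adjusted p = 0.557), all with overlapping groups. In 0 of the 42 were the groups apart, where 2.30% of all genes had groups that did not overlap. Differences of this size were within the spread between rats, which does not show that the groups are alike.

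Set against CTRL hearts, Chrysin hearts had 20 of the 42 genes called higher and Ncf1 lower, where 4.72% of all genes were called higher and 3.97% lower. This comparison shares the CTRL rats with that of SU_HX, so the values of both are given side by side. Gpnmb rose 6.84-fold (adjusted p = 0.00590) in Chrysin hearts and 10.6-fold (adjusted p = 0.000895) in SU_HX hearts, each against CTRL. C1qc rose 3.20-fold (adjusted p = 0.00669) in Chrysin and 3.86-fold (adjusted p = 0.00108) in SU_HX hearts. C3 rose 6.38-fold (adjusted p = 0.0148) in Chrysin and 8.64-fold (adjusted p = 0.00228) in SU_HX hearts. For Fcgr1a the rise was 4.18-fold (adjusted p = 0.0107) in Chrysin and 6.17-fold (adjusted p = 0.00119) in SU_HX hearts. C5ar1 rose 2.70-fold (adjusted p = 0.00773) in Chrysin and 3.24-fold (adjusted p = 0.00112) in SU_HX hearts. Ncf1 fell in both, by 0.97 on the log2 scale in Chrysin hearts (adjusted p = 0.0235) and by 1.56 in SU_HX hearts (adjusted p = 0.00114). The other genes called higher in Chrysin hearts were C1qa, C1qb, C1s, Serping1, Csf1r, Adgre1, Cd68, Aif1, Lyz2, Itgb2, Tyrobp, Cybb, Msr1, Olr1 and Lgals3, with log2 fold changes between 0.93 for C1s and 4.67 for Olr1. The Olr1 value was 3.87 without Chrysin rat 4 and 5.39 without CTRL rat 2, and its call was lost with limma-voom (adjusted p = 0.222) and without Chrysin rat 4 or CTRL rat 1, 3 or 4 (0.0653 to 0.0673). With the deposited counts in edgeR's fit of all 12 libraries, 0 of the 4 tested resident macrophage genes passed in Chrysin hearts, Mrc1 coming nearest (log2 fold change 1.06, SE 0.32, adjusted p = 0.0562). Mrc1 passed with DESeq2 (adjusted p = 0.0175), without SU_HX rat 1 and Chrysin rat 3 together (0.0187) and without Chrysin rat 3, SU_HX rat 1, SU_HX rat 3 or CTRL rat 2 (0.0209 to 0.0482), and Folr2 passed with the compared groups alone (0.0497). Whether their change differs from that of SU_HX hearts is the comparison of Chrysin with SU_HX above, in which they did not pass.

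Chrysin rat 3 stood apart in that group. It lay above all CTRL rats in 15 of the 42 genes, within the CTRL range in 18 and under all CTRL rats in 9, where 26.6% of all genes put it above all CTRL rats. All 8 model rats exceeded all CTRL rats in 15 of the 42, against 6.81% of all genes, and the 7 model rats other than Chrysin rat 3 did so in 32, against 12.1%. Without Chrysin rat 3, 30 of the 42 were called higher in Chrysin hearts. Of the 21 calls, 7 held whichever library was left out, those of C1qb, C1qc, C5ar1, Aif1, Fcgr1a, Gpnmb and Lgals3; without Chrysin rat 4, CTRL rat 1 or CTRL rat 3, those 7 were the only ones left. Ncf1 kept its call in Chrysin hearts without Chrysin rat 3 or any SU_HX rat, and lost it without any other library (adjusted p = 0.0610 to 0.0964).

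**Figure D5:**
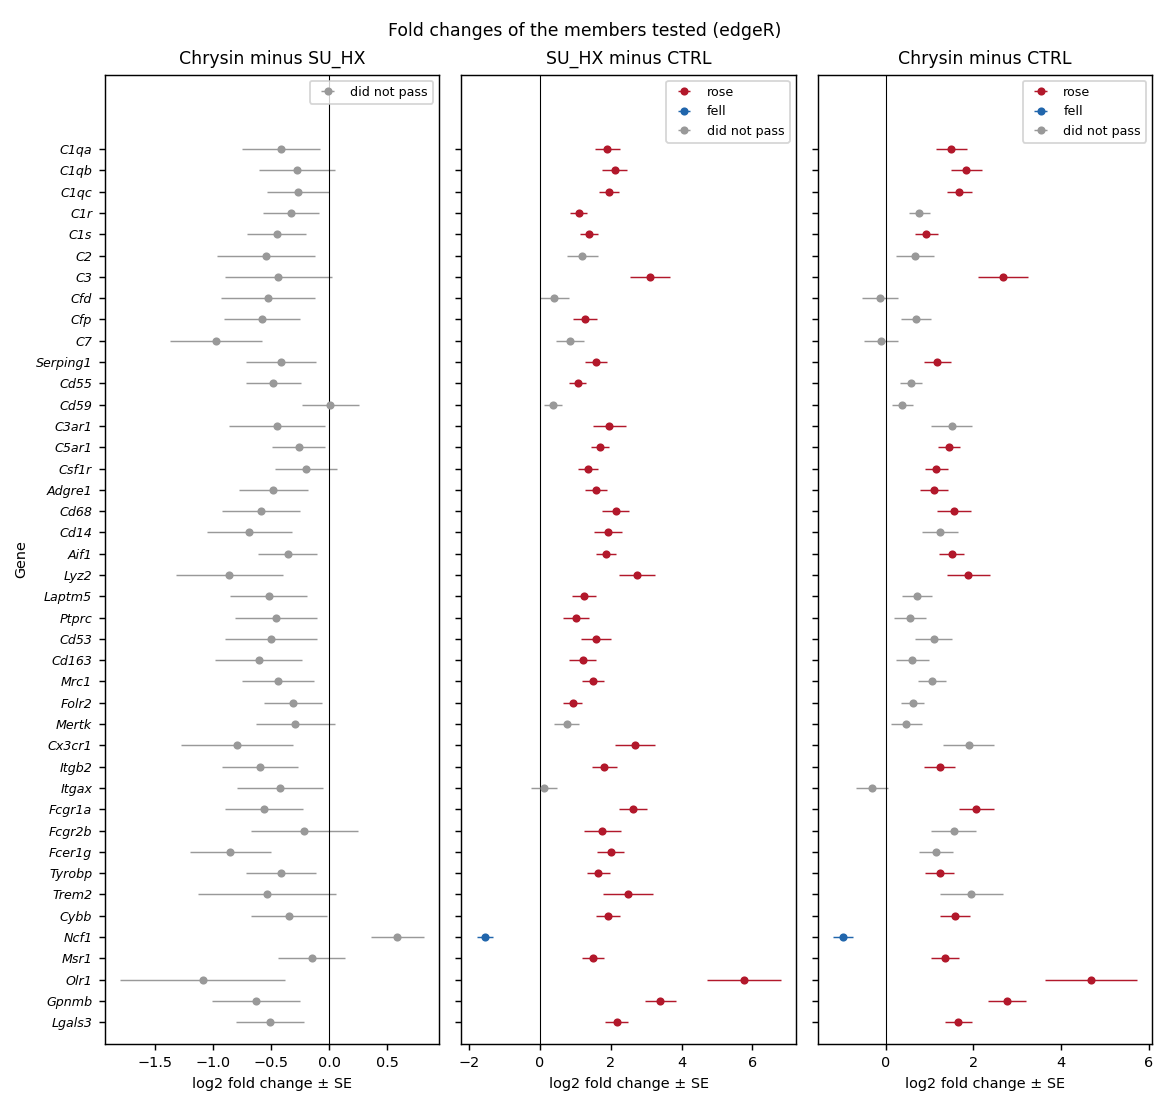
Log2 fold change with SE of each of the 42 genes tested, for Chrysin minus SU_HX (left), SU_HX minus CTRL (middle) and Chrysin minus CTRL (right), on horizontal scales that differ; red rose, blue fell and grey did not pass. All points of the left panel are grey, and Ncf1 is the only blue point of the other panels.

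Further genes of the same pathways were counted in SU_HX against CTRL hearts, beside the 16.0% of all genes called higher. Of 12 other complement genes tested, 6 rose and 0 fell, among them the collectin Colec11 at 3.67-fold (adjusted p = 0.00221) and C4b, a C4 gene of which only 46.5% of exon reads were unique, at 4.22-fold (adjusted p = 0.00280). Of 12 further genes of Fc receptors and their signalling, 9 rose and 0 fell, among them the kinase Syk at 2.83-fold (adjusted p = 0.00284) and the beta-glucan receptor Clec7a at 6.65-fold (adjusted p = 0.00503). Of 12 growth and transcription factors of macrophages, 9 rose and 0 fell, led by Csf1, the ligand of Csf1r, at 2.38-fold (adjusted p = 0.00114), Runx1 at 6.55-fold (adjusted p = 0.00280) and Cebpa at 5.07-fold (adjusted p = 0.00307); Spi1, the gene of PU.1, rose 1.75-fold (adjusted p = 0.0305). Of 17 phagosome and lysosome genes, 9 rose, led by the granulin gene Grn at 2.06-fold (adjusted p = 0.00206), the metal transporter Slc11a1 at 8.93-fold (adjusted p = 0.00210) and osteopontin, Spp1, at 29.1-fold (adjusted p = 0.00369). Lpl was the gene of that list that fell. It encodes lipoprotein lipase, which heart muscle also makes in quantity (log2 fold change -1.12, SE 0.25, adjusted p = 0.00544). Of 6 other resident macrophage markers, 4 rose and 0 fell, with the scavenger receptor Stab1 at 3.64-fold (adjusted p = 0.00144), Igf1 at 2.28-fold (adjusted p = 0.0161) and F13a1 at 1.64-fold (adjusted p = 0.0274). The 2 that did not pass were lower in value in SU_HX hearts, Lyve1, a hyaluronan receptor, with log2 fold change -0.41, SE 0.18, adjusted p = 0.105, and Gas6, a ligand of Mertk, with log2 fold change -0.41, SE 0.21, adjusted p = 0.151. With intron reads both fell, Lyve1 by a log2 fold change of -1.42 (SE 0.25, adjusted p = 0.00279) and Gas6 of -0.62 (SE 0.14, adjusted p = 0.00937). All 6 other monocyte markers tested rose, led by the hyaluronan receptor Cd44 at 2.62-fold (adjusted p = 0.000637), S100a4 at 7.03-fold (adjusted p = 0.00125) and S100a6 at 3.01-fold (adjusted p = 0.00166), genes that other cell types also express. None of these genes was called in Chrysin against SU_HX hearts.

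Markers of other cell types moved with these groups in part. The summed level of 5 fibroblast markers was 1831 to 4379.6 CPM in Chrysin rats, 2538 to 7782 CPM in SU_HX rats and 1659 to 2472 CPM in CTRL rats, and SU_HX rat 3 had the highest; 3 of the 5 (Lum, Dcn and Col1a1) rose in SU_HX hearts. For 5 markers of lung epithelium it was 5.94 to 16.1 CPM in Chrysin rats, 12.7 to 61.7 CPM in SU_HX rats and 1.07 to 3.83 CPM in CTRL rats, again highest in SU_HX rat 3, and all 4 tested rose. The 4 erythroid markers found summed to 23.0 to 150.2 CPM in Chrysin rats, 32.7 to 105 CPM in SU_HX rats and 4.50 to 17.2 CPM in CTRL rats, and the 5 dendritic cell markers to 45.4 to 50.9 CPM in Chrysin rats, 41.6 to 109.6 CPM in SU_HX rats and 38.1 to 43.9 CPM in CTRL rats, of which Flt3 and Clec9a rose. The 6 ventricular muscle markers summed to 14427 to 25931 CPM in Chrysin rats, 8912 to 19744 CPM in SU_HX rats and 23928 to 26177 CPM in CTRL rats, with 2 of 6 (Tnni3 and Myl3) lower in SU_HX hearts, and Chrysin rat 3 had the highest sum of the 8 model rats. The 4 atrial muscle markers summed to 127 to 7087 CPM in Chrysin rats, 1303 to 5839 CPM in SU_HX rats and 23.3 to 66.8 CPM in CTRL rats, and Chrysin rat 3 was the lowest of the model rats; Myl4 and Nppa rose in SU_HX hearts, and Nppa is also a gene that loaded ventricles switch on. Their part in the results above was not tested. Of other leukocytes, 5 B cell markers summed to at most 3.01 CPM in any rat, and 0 of them had enough counts to be tested. The 7 neutrophil markers summed to at most 11.6 CPM, with Mpo and Elane at 0 in every library, and the 1 tested did not pass. The 7 T and NK cell markers summed to 7.09 to 13.6 CPM in Chrysin rats, 5.66 to 22.2 CPM in SU_HX rats and 6.42 to 10.8 CPM in CTRL rats. Only 3 of these 7 were tested, and Nkg7 was the only gene called, lower in SU_HX hearts. Cd3d, Cd3e, Cd3g and Gzmk were under the filter, with more counts in SU_HX than in CTRL rats. Cd3e had 40 counts in SU_HX rats, 29 of them in SU_HX rat 3, against 7 in CTRL rats. The 5 platelet markers summed to 5.71 to 8.73 CPM in Chrysin rats, 6.72 to 28.2 CPM in SU_HX rats and 6.64 to 18.8 CPM in CTRL rats. Only 2 of these 5 had enough counts to be tested, and neither passed. The 5 mast cell markers summed to 30.5 to 52.1 CPM in Chrysin rats, 27.1 to 67.3 CPM in SU_HX rats and 37.6 to 48.1 CPM in CTRL rats, nearly all of it Kit. Only 1 of these 5 was tested, and it did not pass. The 4 endothelial markers found summed to 647 to 975 CPM in Chrysin rats, 692 to 1996 CPM in SU_HX rats and 703 to 760.2 CPM in CTRL rats, and Kdr was the only one to rise. Marco and Cidec, markers of the alveolar macrophages of the lung, were at 0 in every library, and the 4 markers of that list summed to 4.12 to 6.30 CPM in Chrysin rats, 2.78 to 6.37 CPM in SU_HX rats and 3.83 to 7.09 CPM in CTRL rats.

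In the authors' deposited table of adjusted p-values, 37 of the 42 genes are under 0.05 for SU_HX against CTRL, the 36 called here and C2, beside 24.2% of all genes tested. For Chrysin against CTRL the authors' deposited table has 26, the 21 called here with C3ar1, Cd14, Cx3cr1, Fcgr2b and Mrc1 added, beside 8.44% of all genes tested. For Chrysin against SU_HX the authors' deposited table has none of the 42, and 0.0163% of all genes tested.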

How the data were processed

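RNA of 12 rat hearts was sequenced on an Illumina NextSeq 500, per the labels. The authors deposited 1 table with, per the file headers, a whole-number expression count per gene and library together with exon, intron and unique reads, and their own adjusted p-values. The deposited columns also give exon length and position; starts count from 0 (in 3157 of 3157 genes of 1 exon the length equals end minus start), and 1 was added. No source used here names the aligner, genome build, annotation or use of strand.

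Counts of all 12 libraries were tested in 1 fit with edgeR 4.0.16 under R 4.3.3 (filterByExpr by group, TMM factors, quasi-likelihood F test, two-sided, Benjamini-Hochberg over 12304 genes, threshold 0.05). The members and lists were chosen with earlier results of these data known. Every gene found is named. Values of every rat are given for the gene with the smallest p in SU_HX against CTRL and that with the highest CPM per kb of each role, for those that fell or did not pass, and for the 5 smallest p in Chrysin against SU_HX; Olr1 and Cybb were added after their values were seen. From each further list up to 3 genes with the smallest p and any called the other way are named, and Spi1, Lyve1 and Gas6 were added after their values were seen; a few genes of these lists are not reported here by name. Copy-numbered rows of C4a and Cfb, which share reads with each other or with C4b and C2, were not used. Within a group the libraries differed beyond sampling noise (chi-square over degrees of freedom at least 3.24 for any pair) and each counts once. Floors of 3 counts cover counting error only.

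Promoters are the 250 bases before each gene's start in RefSeq (GRCr8), searched on both strands for GAGGAA and GAGGAAGT, which overlap. Alternatives were tried with no filter, relative-log size factors, DESeq2 1.42.0, limma-voom (limma 3.58.1), the compared groups alone, rat number as a block, each library left out, SU_HX rat 1 and Chrysin rat 3 left out together, unique reads, a fold of at least 2 and, chosen after the data were seen, intron reads. Only the edgeR fit was tried on simulated counts, drawn from the CTRL means with known changes in genes that were not of low level. No simulated library stood apart, so this says nothing of low counts or of such libraries.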

Additional observations from a re-analysis of the deposited data

Results flagged for a closer look

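In 138 groups of 4 rats (46 genes in 3 groups), 19 single values lay far from the other 3 by Dixon's ratio, which chance alone does in about 1 of 20 groups. SU_HX rat 3 was far above the other SU_HX rats in 8 genes: C1qb (97.2 CPM), Csf1r (200.2), Lyz2 (347), Cx3cr1 (13.2), Fcer1g (39.7), Tyrobp (25.9), Trem2 (10.7) and Cybb (149.6 CPM). The nearest other SU_HX rat had 44.9 CPM of C1qb, 113 of Csf1r and 137 of Lyz2. Chrysin rat 3 was far below the other Chrysin rats in 4 genes: C1r (153 CPM, against at least 259), C1s (113, against at least 209.8), Serping1 (79.2, against at least 192) and Lgals3 (16.4, against at least 40.7). It was far above them in Ncf1 (121 CPM, against at most 75.2) and, at a single count, in Cfi (0.274 CPM, against 0). In CTRL rats the values apart were the lowest of Cd14 (4.21 CPM in rat 2), Itgb2 (5.99 in rat 1) and Itgax (6.85 in rat 3) and the highest of Mrc1 (68.9 in rat 2) and Cybb (29.2 CPM in rat 4).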

How the results depend on the processing

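For SU_HX against CTRL, between 33 and 36 of these genes were called higher, and Ncf1 lower, under every alternative that kept all libraries and the deposited counts, DESeq2, limma-voom and a fold of at least 2 among them. The count of all genes called (3776) was 1900 with a fold of at least 2 and 2429 with intron reads, and intron reads called 16 of these genes higher. With single libraries left out in turn, 28 to 37 of these genes were called higher and Ncf1 lower in each fit, and 2486 to 4780 of all genes were called in either direction. For Chrysin against CTRL the 20 genes called higher became 13 with limma-voom, 12 with intron reads, 32 without SU_HX rat 1 and Chrysin rat 3 together and 7 to 30 with single libraries left out, and the number called lower (1, Ncf1) was 0 to 1 with single libraries left out and 0 at a fold of at least 2. All genes called there (1069) became 2599 with the compared groups alone, 3564 without both libraries, 1733 with DESeq2, 612 with a fold of at least 2 and 303 to 2092 with single libraries left out. Chrysin against SU_HX gave 0 calls among these genes under every alternative, and over all genes 2 with DESeq2 and 1 with intron reads. Of its 42 differences, 40 were below 0, and 22 of 32 with intron reads; with single libraries left out, 31 to 41.

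Rats with the same number were not treated as paired. The correlation of their deviations ran between -0.38 and 0.07 over 12 pairs, which does not show that equal numbers are unrelated. With rat number as a block, 34 genes were called higher in SU_HX against CTRL (C2 gained, adjusted p = 0.0482; Ptprc lost, 0.0640; Cd163 lost, 0.0610), 12 in Chrysin against CTRL (624 of all genes) and 0 in Chrysin against SU_HX. Signs turned for Itgax in SU_HX against CTRL (-0.057 with limma-voom, -0.27 without SU_HX rat 1 and Chrysin rat 3 together, -0.27 to 0.35 with single libraries left out). They also turned in Chrysin against CTRL for Cfd (0.11 without both libraries, -0.38 to 0.12) and C7 (0.049 without both, 0.049 with intron reads, -0.23 to 0.060), none of which passed. The causes were not tested. Depth limits genes near 3 counts, such as Ccr2, C6, Cfi and Timd4.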
